A study of Mus musculus with 21 samples.

Results

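The genes described here encode the subunits of the mitochondrial respiratory chain and of ATP synthase. They were taken by symbol from the expression tables of embryonic mouse hearts. Symbols that begin Nduf (with a, b, c, s or v and a digit, or ab1), Sdha to Sdhd, Uqcr, Cox4 to Cox8 or Atp5 were included. Ndufa4l2 and symbols of pseudogenes were left out. This gave 84 of 24509 listed genes. By complex there were 36 of complex I (Nduf without Ndufa4), 4 of complex II (Sdh), 8 of complex III (Uqcr), 19 of complex IV (Cox with Ndufa4) and 17 of complex V (Atp5). Of these, 82 were tested at each stage. Cox7b2 and Cox8c were below a mean of 0.5 RPKM at both stages. Cox7b2 averaged 0.0633 ± 0.096 RPKM in null and 0.142 ± 0.10 RPKM in flox at E9.5 (SD, n = 5 each), and Cox8c was listed at 0 in every E9.5 library. Atp5s and Atp5sl are not subunits by current naming: the RefSeq gene table lists them as Dmac2l and Dmac2.

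Libraries of polyadenylated RNA came from cardiac tissue of CD1 embryos. The null hearts were Chd4 Δflox/Δflox and the flox hearts, their controls, were Chd4 flox/flox. At embryonic day (E) 9.5 there were 5 null and 5 flox libraries from 200 ng of RNA each, and at E10.5 there were 3 null and 3 flox libraries from 300 ng each. The labels and series text name no recombinase for the null allele. CHD4, the ATPase of the NuRD chromatin-remodelling complex, was also mapped by chromatin immunoprecipitation in wild-type CD1 cardiac tissue at E10.0, in 3 libraries that the series text counts as 2 biological and 3 technical replicates.

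Complexes I and II pass electrons from NADH and succinate to ubiquinone, complex III passes them to cytochrome c, and complex IV (cytochrome c oxidase) passes them to oxygen. Complexes I, III and IV pump protons, and ATP synthase (complex V) uses the gradient to make ATP. Most subunits are encoded in the nucleus, and the few made in the mitochondrion are not analysed here. Several complex IV subunits exist as a general form and as a heart and muscle form, which heart muscle takes up as it matures. In mammals the nuclear genes of the chain are bound by NRF1, by ETS factors such as GABP, by YY1 and by estrogen-related receptors.

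The sequences below are the 250 bases before the annotated start of 8 members (RefSeq, GRCm38.p6), written 5′ to 3′ on the strand of the gene. The first 5 stand for complexes I, I, II, III and V among the genes of smallest p at E9.5, and were picked because they hold a match to an NRF1 or ETS motif. The last 3 are the complex IV isoform genes Cox7a1 and Cox8b, which fell at E9.5, and Cox6b2, which rose. Capitals mark matches on either strand to CATGCGC (NRF1 core), CCGGAAG (ETS), AAGATGG (YY1), AAGGTCA (estrogen-related receptors), GGGCGG (GC box) or the CCAAT box.
Ndufa8, chr2:36049339-36049588, minus strand: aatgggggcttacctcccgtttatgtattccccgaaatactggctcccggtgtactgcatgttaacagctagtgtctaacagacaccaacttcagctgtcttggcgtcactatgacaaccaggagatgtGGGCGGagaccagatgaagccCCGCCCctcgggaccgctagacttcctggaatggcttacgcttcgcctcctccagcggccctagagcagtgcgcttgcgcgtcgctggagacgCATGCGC
Ndufb6, chr4:40279422-40279671, minus strand: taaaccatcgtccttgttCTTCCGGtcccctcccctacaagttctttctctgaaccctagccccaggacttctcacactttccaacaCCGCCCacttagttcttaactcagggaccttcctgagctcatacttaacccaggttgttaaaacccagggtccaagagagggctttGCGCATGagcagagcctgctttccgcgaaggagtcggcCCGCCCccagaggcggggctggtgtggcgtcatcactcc
Sdhb, chr4:140961021-140961270, plus strand: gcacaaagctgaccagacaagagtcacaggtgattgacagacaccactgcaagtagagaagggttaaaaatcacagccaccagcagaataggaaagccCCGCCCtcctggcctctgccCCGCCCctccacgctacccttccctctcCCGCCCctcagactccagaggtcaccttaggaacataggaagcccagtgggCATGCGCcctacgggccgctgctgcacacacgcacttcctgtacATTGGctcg
Uqcrh, chr4:116075071-116075320, minus strand: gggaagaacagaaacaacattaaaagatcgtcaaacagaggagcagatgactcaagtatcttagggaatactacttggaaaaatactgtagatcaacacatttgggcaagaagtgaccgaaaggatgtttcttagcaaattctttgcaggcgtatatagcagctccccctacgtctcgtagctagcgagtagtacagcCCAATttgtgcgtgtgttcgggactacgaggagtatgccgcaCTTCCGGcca
Atp5h, chr11:115419920-115420169, minus strand: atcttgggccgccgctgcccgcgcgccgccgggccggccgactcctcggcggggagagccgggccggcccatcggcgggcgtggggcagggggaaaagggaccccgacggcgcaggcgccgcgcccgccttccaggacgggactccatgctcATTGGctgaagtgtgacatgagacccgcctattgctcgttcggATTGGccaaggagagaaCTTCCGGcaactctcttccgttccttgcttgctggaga
Cox7a1, chr7:30183921-30184170, plus strand: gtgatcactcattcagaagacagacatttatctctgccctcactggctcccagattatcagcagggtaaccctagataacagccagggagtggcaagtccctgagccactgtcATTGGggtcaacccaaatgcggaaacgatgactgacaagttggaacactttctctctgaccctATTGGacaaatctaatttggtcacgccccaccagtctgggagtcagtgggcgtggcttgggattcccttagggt
Cox8b, chr7:140900447-140900696, minus strand: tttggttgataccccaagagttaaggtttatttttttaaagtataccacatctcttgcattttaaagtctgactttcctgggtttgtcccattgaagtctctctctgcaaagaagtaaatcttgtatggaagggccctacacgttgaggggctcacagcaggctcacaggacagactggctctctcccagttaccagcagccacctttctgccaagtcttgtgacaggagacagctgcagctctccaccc
Cox6b2, chr7:4753095-4753344, minus strand: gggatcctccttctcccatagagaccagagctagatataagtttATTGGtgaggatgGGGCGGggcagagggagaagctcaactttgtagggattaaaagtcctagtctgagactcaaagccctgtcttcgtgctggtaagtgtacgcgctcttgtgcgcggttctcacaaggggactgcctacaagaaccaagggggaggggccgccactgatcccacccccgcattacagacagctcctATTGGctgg

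A match is a description of the letters and not a binding site. Starts were found for 70 of 84 members and for 10488 of the genes tested at E9.5. The NRF1 core was in 10 member windows (14.3%) and in 6.63% of the windows of tested genes. ETS matches stood in 12 member windows (17.1%), against 15.3% of tested genes, and estrogen-related receptor matches in 5 (7.14%), against 3.46%. YY1 matches were in 2 (2.86%), against 5.02%. The GC box was in 26 member windows (37.1%), against 64.2% of tested genes, and the CCAAT box in 31 (44.3%), against 40.3%. None of these motifs stands in the Cox8b window. The Ndufa8 window ends in an NRF1 core match, and in Sdhb the NRF1 core match begins 53 bases before the start.

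Library depth, recovered from the steps of the RPKM values, was 17.1 to 20.1 M reads in null and 19.6 to 23.5 M reads in flox at E9.5. At E10.5 it was 18.0 to 18.9 M reads in null and 17.3 to 18.0 M reads in flox. Chd4 itself had 48.8, 46.9, 45.4, 40.7 and 46.9 RPKM in the null libraries, against 91.4, 92.3, 94.6, 91.2 and 92.7 RPKM in the flox libraries at E9.5, a log2 change of −1.01 ± 0.052 (SE), adjusted p = 1.7e-06 (limma). At E10.5 it had 48.2, 57.4 and 52.5 RPKM in the null libraries, against 67.2, 74.6 and 91.1 RPKM in the flox libraries, with no overlap but a log2 change of −0.55 ± 0.16 (SE), adjusted p = 0.116 that did not pass. All tests of single genes are limma on log2(RPKM + 0.5), with Benjamini-Hochberg adjustment over all tested genes and a threshold of 0.05. The series text calls the libraries of a group biological replicates.

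At E9.5 the subunit genes were lower in null hearts across all 5 complexes. Of 82 tested, 52 fell and 1 rose, the complex IV gene Cox6b2. Among all 13643 tested genes, 10.3% were called lower and 6.87% higher. The median log2 change of the 82 was −0.26, a fold of 0.836, beside −0.040 over all tested genes. Every null library was below every flox library for 49 of the 82, against 8.57% of all tested genes. Cox6b2 was the 1 member with every null library above every flox library, against 5.5% of all tested genes. The falls that passed ran from a log2 change of −0.15 to −1.19, with a median of −0.30, and 1 of them, Cox8b, was a change of at least 2-fold. In bulk tissue, fewer cells of a type and less RNA per cell cannot be told apart.

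**Figure D1:**
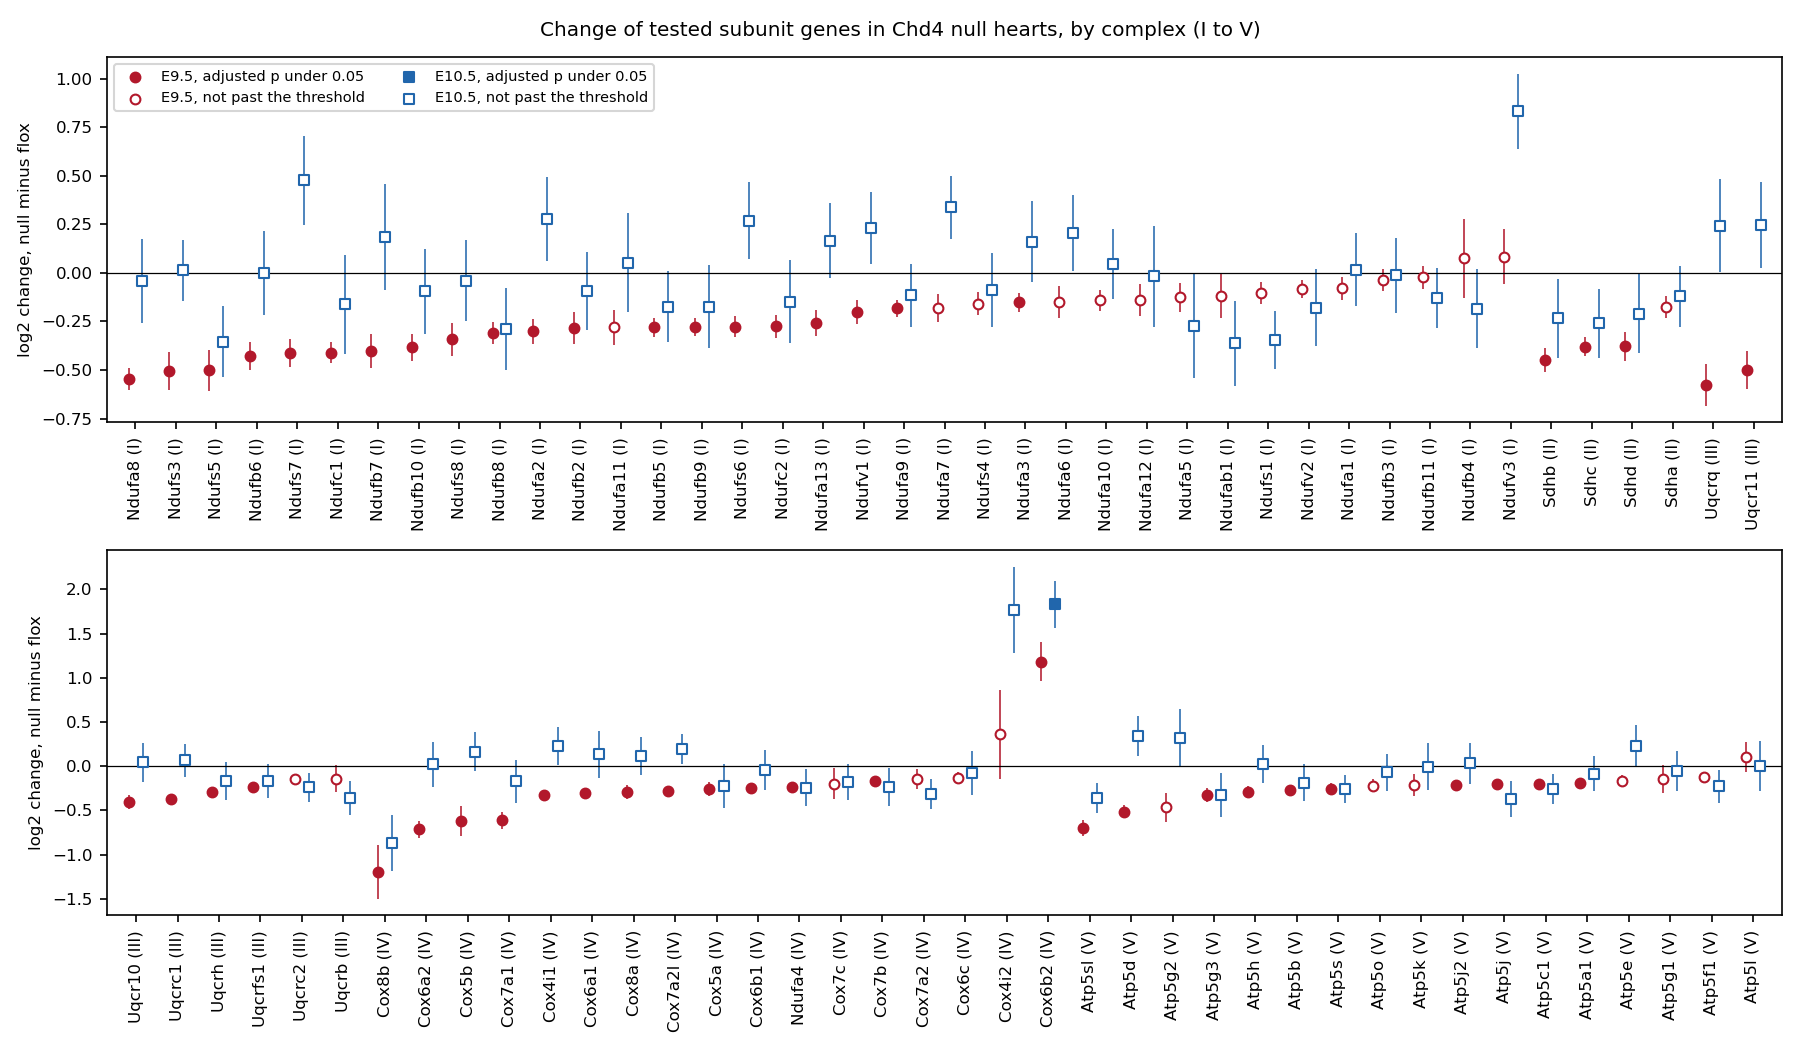
Log2 change, null minus flox, of 81 tested subunit genes (x axis, complex in parentheses) at E9.5 (red circles) and E10.5 (blue squares), with bars for the standard error and filled symbols for adjusted p under 0.05. At E9.5, 51 genes lie below 0 as filled symbols and Cox6b2 above, and at E10.5 the filled symbol is Cox6b2.

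The summed RPKM of each complex separated the groups at E9.5. Complex I summed to 2500.1, 2531, 2478, 2347 and 2378 RPKM in the null libraries and 3102, 2944, 2828, 2862 and 2841 RPKM in the flox libraries. Complex II, the smallest sum, came to 578, 552, 566, 501 and 538 RPKM in the null libraries and 724, 727, 666, 672 and 707 RPKM in the flox libraries. Neither complex had a null library that reached the lowest flox library. Complex III summed to 936, 940.2, 931, 846 and 886 RPKM in the null libraries and 1196, 1147, 1118, 1096 and 1118 RPKM in the flox libraries. Complex IV summed to 2126, 2113, 2086, 1997 and 2035 RPKM in the null libraries and 2735, 2501, 2461, 2485 and 2401 RPKM in the flox libraries. Complex V, the largest sum, came to 3843, 3695, 3793, 3423 and 3629 RPKM in the null libraries and 4690.1, 4467, 4375, 4215 and 4338 RPKM in the flox libraries. The mean in null over the mean in flox was 0.839 for complex I, 0.783 for II, 0.800 for III, 0.823 for IV and 0.832 for V. These ratios are descriptions with no test, and differences among them were not tested.

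**Figure D2:**
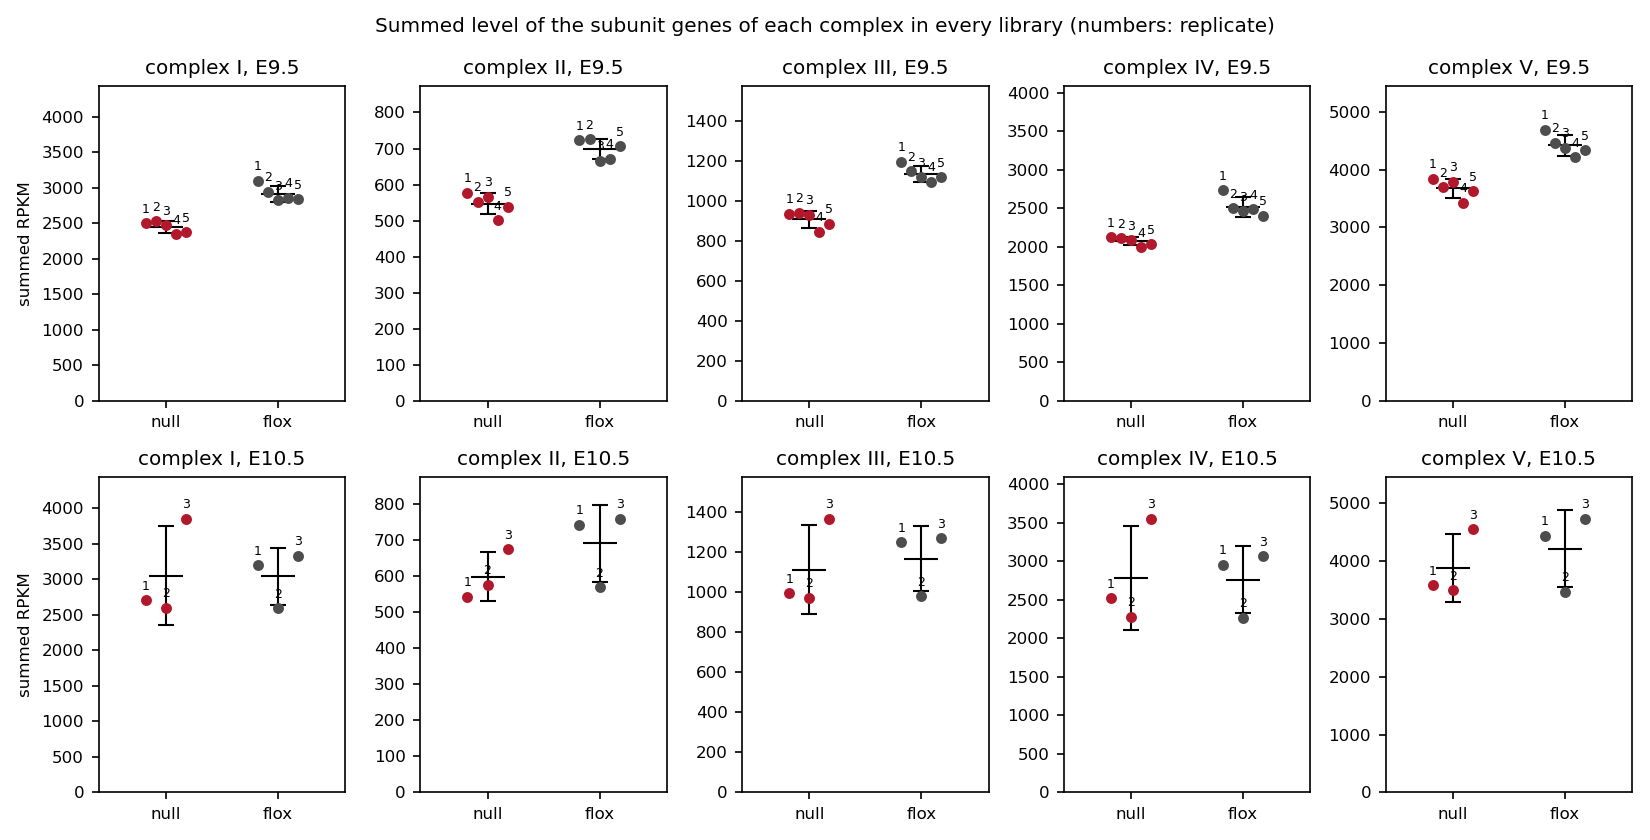
Summed RPKM (y axis, from 0) of the subunit genes of complexes I to V in every library, at E9.5 (upper row) and E10.5 (lower row), null left of flox, with points for libraries (replicate number beside them) and bars for the mean and SD. At E9.5 the null and flox points do not overlap in any complex, and at E10.5 they overlap in all 5, with null 3 highest among null and flox 2 lowest among flox.

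Complex I, the NADH dehydrogenase, had 21 of 36 genes lower and none higher at E9.5. Its 7 core subunits, which carry the flavin, the iron-sulfur clusters and the ubiquinone site, gave 5 falls, and its 29 other subunits gave 16. Ndufa8, an accessory subunit, had 92.0, 82.8, 83.6, 78.2 and 80.9 RPKM in the null libraries, against 131, 124, 118, 120.1 and 116 RPKM in the flox libraries. Its groups lay apart, with a log2 change of −0.54 ± 0.055 (SE), adjusted p = 0.000178, the smallest p of all members (limma). Ndufc1, a small accessory subunit, had 86.2, 78.2, 79.9, 77.3 and 81.4 RPKM in the null libraries, against 117, 108, 109, 101 and 102 RPKM in the flox libraries. All null values were below all flox values, and the change was −0.41 ± 0.054 (SE), adjusted p = 0.000771 (limma). Ndufb6, an accessory subunit of the membrane arm, had 61.6, 61.2, 58.8, 54.8 and 54.0 RPKM in the null libraries, against 91.2, 77.3, 76.3, 70.7 and 76.5 RPKM in the flox libraries. The log2 change was −0.43 ± 0.070 (SE), adjusted p = 0.00289 (limma), again without overlap.

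Other complex I genes that fell spanned log2 changes of −0.51 (Ndufs3, a core subunit listed at under 10 RPKM) to −0.15 (Ndufa3, an accessory subunit). The core subunits Ndufs7 and Ndufs8, which hold iron-sulfur clusters, changed by −0.41 and −0.34 on the log2 scale, and Ndufv1, which binds NADH, by −0.20. Ndufs1 and Ndufv2, core subunits that did not pass, had log2 differences of −0.10 (adjusted p = 0.240) and −0.084 (adjusted p = 0.250, limma). Ndufv3, an accessory subunit of the NADH-binding end, had 69.7, 77.9, 72.9, 102 and 69.6 RPKM in the null libraries, against 73.2, 65.2, 65.4, 103 and 65.8 RPKM in the flox libraries. Null 4 and flox 4 stood above the rest in it, and the log2 difference was 0.083 ± 0.14 (SE), adjusted p = 0.720 (limma). Ndufa7, another accessory subunit, had 20.7, 19.8, 19.2, 17.8 and 16.1 RPKM in the null libraries, against 20.0, 19.9, 22.6, 21.3 and 22.2 RPKM in the flox libraries. These groups overlapped, with a log2 difference of −0.18 ± 0.072 (SE), adjusted p = 0.109 (limma).

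Complex II, succinate dehydrogenase, is the one complex of the chain that also works in the citric acid cycle, and 3 of its 4 genes fell. Sdhb, its iron-sulfur subunit, had 127, 131, 126, 109 and 117 RPKM in the null libraries, against 176, 171, 156, 163 and 167 RPKM in the flox libraries. Its log2 change was −0.45 ± 0.061 (SE), adjusted p = 0.000966 (limma), with no overlap. Sdhc, a membrane anchor, had 142, 129.6, 131, 124 and 131 RPKM in the null libraries, against 176, 173, 166, 167 and 172 RPKM in the flox libraries. Its change was −0.38 ± 0.047 (SE), adjusted p = 0.000556 (limma), also with the groups apart. Sdhd, the other anchor, had 203, 169, 193, 154 and 177 RPKM in the null libraries, against 235, 244, 223, 217 and 242 RPKM in the flox libraries. To 2 decimals its log2 change was the same, −0.38 ± 0.076 (SE), adjusted p = 0.00739 (limma). Sdha, the flavoprotein that holds the succinate site, had 106, 123, 116, 116 and 113 RPKM in the null libraries, against 137, 139.6, 121, 124 and 126 RPKM in the flox libraries. The groups overlapped, and its log2 difference of −0.17 ± 0.058 (SE), adjusted p = 0.0616 did not pass (limma).

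Complex III, the cytochrome bc1 complex, had 6 of 8 genes lower. Uqcrc1, a core protein, had 118, 121, 119, 113 and 109 RPKM in the null libraries, against 154, 155, 146, 152 and 146 RPKM in the flox libraries. Its log2 change was −0.37 ± 0.046 (SE), adjusted p = 0.000550 (limma). Uqcrh, the hinge protein beside cytochrome c1, had 199, 188, 189.8, 178 and 190.0 RPKM in the null libraries, against 246, 228, 218, 227 and 237 RPKM in the flox libraries. Its log2 change was −0.29 ± 0.050 (SE), adjusted p = 0.00367, a fall (limma). Uqcrfs1, the Rieske iron-sulfur protein, had 154, 164, 164, 161 and 157 RPKM in the null libraries, against 192, 197, 185, 185 and 186 RPKM in the flox libraries. The change was −0.24 ± 0.043 (SE), adjusted p = 0.00421 (limma), the smallest of the 6 falls. Uqcrq, a small subunit, had 61.8, 60.5, 51.8, 42.4 and 45.3 RPKM in the null libraries, against 87.9, 76.5, 78.9, 72.9 and 72.3 RPKM in the flox libraries. This was the largest fall of the complex, −0.58 ± 0.11 (SE), adjusted p = 0.00500 (limma). The groups did not overlap in any of these 4. Uqcr11 and Uqcr10, small subunits, changed by −0.50 and −0.40. Uqcrc2, the other core protein, had 140.5, 147, 153, 149.6 and 156 RPKM in the null libraries, against 173, 174, 156, 154 and 167 RPKM in the flox libraries, a log2 difference of −0.14 ± 0.053 (SE), adjusted p = 0.0870 that did not pass (limma). Uqcrb was listed at 2.12 ± 0.38 RPKM in null and 2.43 ± 0.66 RPKM in flox (SD, n = 5 each) and did not pass, with a log2 difference of −0.14 ± 0.15 (SE), adjusted p = 0.557 (limma).

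Complex IV had 12 of 17 tested genes lower and 1 higher. The heart and muscle forms gave 3 of its 4 largest falls. Cox6a2, the heart and muscle form of subunit 6a, had 63.4, 80.0, 78.1, 68.8 and 62.1 RPKM in the null libraries, against 120.3, 127, 99.2, 126 and 106 RPKM in the flox libraries. No null library reached the flox range, and the log2 change was −0.71 ± 0.094 (SE), adjusted p = 0.000860 (limma). Cox7a1, the heart and muscle form of subunit 7a, had 51.3, 40.8, 47.1, 37.8 and 37.1 RPKM in the null libraries, against 75.4, 58.7, 60.0, 67.3 and 66.0 RPKM in the flox libraries. It fell without overlap, −0.61 ± 0.10 (SE), adjusted p = 0.00283 (limma). Cox8b, the heart and muscle form of subunit 8, had 0.562, 1.79, 0.829, 1.78 and 0.557 RPKM in the null libraries, against 2.19, 4.83, 1.83, 4.50 and 2.40 RPKM in the flox libraries. Its log2 change of −1.19 ± 0.31 (SE), adjusted p = 0.0226 was the largest fall of any member (limma), on 4 to 12 reads per null library and 13 to 41 per flox library, so counting error is large.

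The log2 changes of the general forms were nearer 0. Cox4i1, the general form of subunit 4, had 369, 356, 348, 347 and 336 RPKM in the null libraries, against 458, 434, 429, 456 and 418 RPKM in the flox libraries. Its log2 change was −0.32 ± 0.050 (SE), adjusted p = 0.00222 (limma). Cox6a1 had 262, 279.9, 263, 252 and 245 RPKM in the null libraries, against 345, 340.2, 316, 314 and 293 RPKM in the flox libraries, a change of −0.30 ± 0.060 (SE), adjusted p = 0.00692 (limma). Neither gene had overlapping groups. Cox8a had 227, 247, 239, 223 and 232 RPKM in the null libraries, against 343, 271, 296, 281 and 249 RPKM in the flox libraries. The log2 change was −0.29 ± 0.079 (SE), adjusted p = 0.0270 (limma). Cox6b1 had 386, 389, 365, 339 and 352 RPKM in the null libraries, against 461, 435, 419, 428 and 433 RPKM in the flox libraries, a change of −0.25 ± 0.056 (SE), adjusted p = 0.0118 (limma). Both sets of groups lay apart. Cox7a2 had 126, 92.2, 118, 110.3 and 115 RPKM in the null libraries, against 129, 136, 137, 94.6 and 127 RPKM in the flox libraries. Flox 4 was the lowest flox library there, and the difference of −0.14 ± 0.11 (SE), adjusted p = 0.407 did not pass (limma). The other 5 falls were Cox5b (log2 −0.61, at a mean under 10 RPKM), Cox7a2l (−0.28), Cox5a (−0.26), Ndufa4 (−0.23) and Cox7b (−0.17).

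Cox6b2, known in mammals as the testis form of subunit 6b, went the other way. At E9.5 it had 10.9, 20.9, 12.9, 23.6 and 13.9 RPKM in the null libraries, against 4.71, 6.94, 8.63, 7.79 and 5.88 RPKM in the flox libraries. Every null library was above every flox library, and the log2 change was 1.18 ± 0.22 (SE), adjusted p = 0.00473 (limma). Cox4i2, a form of subunit 4 known to be induced by low oxygen, had 12.3, 10.6, 8.91, 34.4 and 9.60 RPKM in the null libraries, against 7.10, 6.31, 8.25, 39.0 and 7.06 RPKM in the flox libraries. Null 4 and flox 4 stood far above the other libraries of their groups, and the log2 difference was 0.36 ± 0.50 (SE), adjusted p = 0.659 (limma). The same 2 libraries were highest for 12 listed hypoxia response genes, with a mean log2 level of 4.44, 4.38, 4.13, 6.06 and 4.36 in null libraries 1 to 5 and 3.94, 3.94, 4.19, 5.65 and 4.04 in flox libraries 1 to 5. Cox4i2 is itself on that list, so part of this likeness is built in. Without null 4 and flox 4, 47 members were lower and 2 higher, against 9.81% and 6.85% of all tested genes in that fit. The 2 higher members were Cox6b2 and Cox4i2 (log2 change of Cox4i2 0.50, adjusted p = 0.0165, limma). The 2 libraries left out were chosen after the data were seen, and they held the highest Cox4i2 values. The Cox4i2 call is therefore not independent of that choice.

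**Figure D3:**
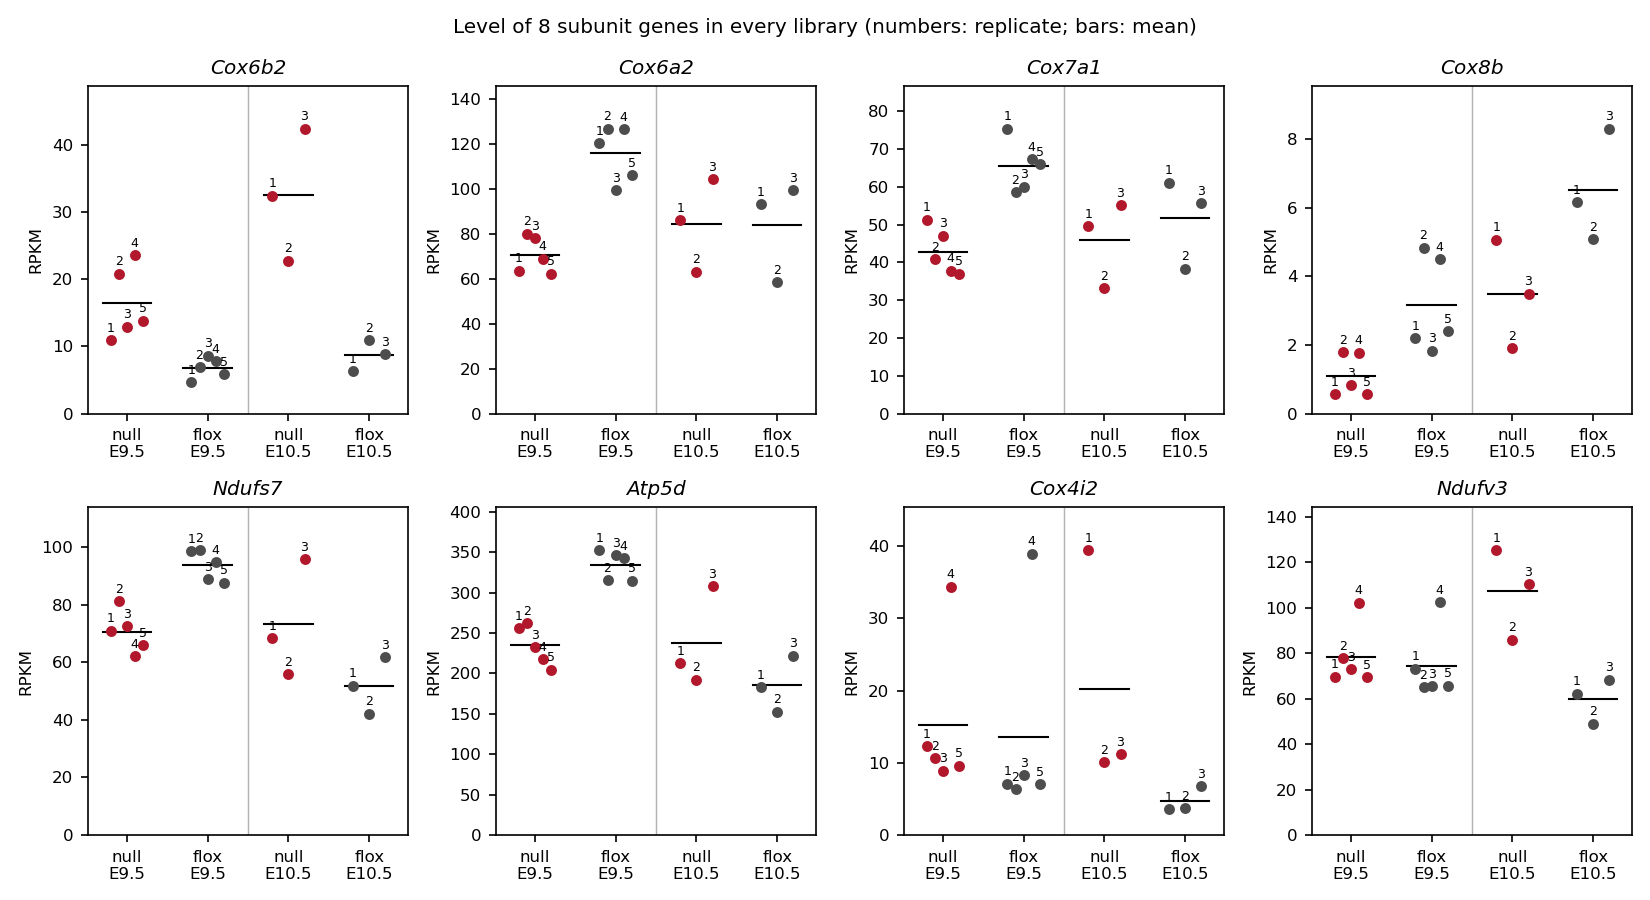
RPKM (y axis, from 0) of 8 subunit genes in every library, null left of flox at each stage, with points for libraries (replicate number beside them) and bars for means. Cox6b2 is higher in null at both stages, Cox6a2, Cox7a1, Ndufs7 and Atp5d are lower in null at E9.5 and overlap at E10.5, Cox8b is lower in null at both stages, and null 4 and flox 4 stand out at E9.5 in Cox4i2 and Ndufv3.

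Complex V, the ATP synthase, had 10 of 17 genes lower and none higher, and 8 of these 10 were subunits. The catalytic head and its stalk gave 4 falls of 5 genes, and the other subunits gave 4 of 10. Atp5d, the delta subunit of the central stalk, had 256, 262, 233, 218 and 205 RPKM in the null libraries, against 353, 315, 346, 343 and 315 RPKM in the flox libraries. Its log2 change was −0.51 ± 0.075 (SE), adjusted p = 0.00153 (limma). Atp5b, the catalytic beta subunit, had 1126, 1058, 1095, 1067 and 1072 RPKM in the null libraries, against 1351, 1335, 1273, 1262 and 1287 RPKM in the flox libraries. The log2 change was −0.26 ± 0.054 (SE), adjusted p = 0.00796 (limma). Atp5h, subunit d of the peripheral stalk, had 51.4, 43.4, 46.6, 51.8 and 53.7 RPKM in the null libraries, against 64.0, 59.6, 60.2, 57.6 and 60.2 RPKM in the flox libraries. The change was −0.29 ± 0.063 (SE), adjusted p = 0.0108 (limma), and in none of these 3 did the groups overlap. Atp5sl (Dmac2, which acts in complex I assembly) had 11.4, 9.03, 8.56, 8.39 and 8.48 RPKM in the null libraries, against 17.2, 15.7, 15.3, 13.8 and 13.9 RPKM in the flox libraries. Its log2 change of −0.70 ± 0.093 (SE), adjusted p = 0.000869 was larger than that of any true ATP synthase subunit (limma).

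Of the genes for the ring of c subunits, Atp5g3 had the highest listed RPKM. Atp5g3 had 799, 724, 780.0, 611 and 737 RPKM in the null libraries, against 977, 910.4, 915, 852 and 896 RPKM in the flox libraries, a log2 change of −0.32 ± 0.078 (SE), adjusted p = 0.0181 without overlap (limma). Atp5g1 had 4.65, 4.55, 4.91, 3.59 and 3.03 RPKM in the null libraries, against 5.94, 4.98, 4.36, 3.20 and 4.79 RPKM in the flox libraries, and Atp5g2 had 0.632, 0.183, 0.777, 0.583 and 0.548 RPKM in the null libraries, against 1.02, 0.729, 1.11, 0.921 and 0.823 RPKM in the flox libraries. Neither passed, with log2 differences of −0.14 (adjusted p = 0.568) and −0.47 (adjusted p = 0.0783, limma). Atp5j, coupling factor 6, fell with a log2 change of −0.20 ± 0.059 (SE), adjusted p = 0.0366 (limma), but its span overlaps Gabpa, so its reads are uncertain. Atp5c1, the gamma subunit, changed by −0.20, Atp5a1, the alpha subunit, by −0.19 and Atp5j2 by −0.21.

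Some levels are uncertain. Of the 82 tested members, 12 averaged under 10 RPKM at E9.5, and 34 averaged over 100 RPKM. Falls passed in 5 of those 12 and in 26 of those 34. The RefSeq table names pseudogenes of 10 members, among them Uqcrh, Atp5c1, Cox5b, Cox7c, Atp5l, Ndufs5 and Ndufab1. The search took only copies named after the gene with the ending -ps, so copies under other names were not counted. The counting of reads with several alignments is not described by the sources used here, so the levels of such members are uncertain. Other members may be affected too, and Uqcrb, Atp5g1, Atp5g2 and Ndufb4, with no copy so named, were listed at under 10 RPKM at E9.5. In addition, 14 members overlap a protein-coding gene, such as Cox6a2 with Itgad, Atp5d with Cbarp and Uqcrq with Gdf9. The library kit kept the strand, but whether counting used it is not described there.

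In the ratio of paired isoforms, 2 of 7 measured pairs changed at E9.5. The log2 ratio of Cox6a2 to Cox6a1 was −2.04, −1.80, −1.75, −1.87 and −1.97 in the null libraries, against −1.52, −1.42, −1.66, −1.31 and −1.46 in the flox libraries. Each null ratio was below each flox ratio, a difference of −0.41 (exact permutation test, two-sided, p = 0.00794, adjusted over 7 pairs 0.0278). For Cox6b2 over Cox6b1 the log2 ratio was −5.08, −4.19, −4.77, −3.81 and −4.62 in the null libraries, against −6.47, −5.87, −5.52, −5.69 and −6.09 in the flox libraries. Each null ratio was higher, a difference of 1.43 with the same exact p and adjusted p. This p is the smallest that 5 against 5 allows, and no pair passed without null 1, null 4, null 5 or flox 1, while 3 pairs passed without flox 2, flox 3 or flox 4. The groups of both called pairs stay apart whichever library is left out. The lost calls therefore do not show that these pairs depend on 1 library. Cox7a1 over Cox7a2 was −1.29, −1.17, −1.32, −1.53 and −1.63 in the null libraries, against −0.77, −1.21, −1.19, −0.49 and −0.94 in the flox libraries. The groups overlapped in that pair, and the difference of −0.47 did not pass (exact permutation p = 0.0238, adjusted 0.0556). Cox8b over Cox8a differed by −0.90 (exact permutation p = 0.0635, adjusted 0.111), also with overlap. Cox4i2 over Cox4i1, Atp5g1 over Atp5g3 and Atp5g2 over Atp5g3 differed by 0.68, 0.18 and −0.14, with adjusted exact permutation p of 0.333, 0.333 and 0.508.

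**Figure D4:**
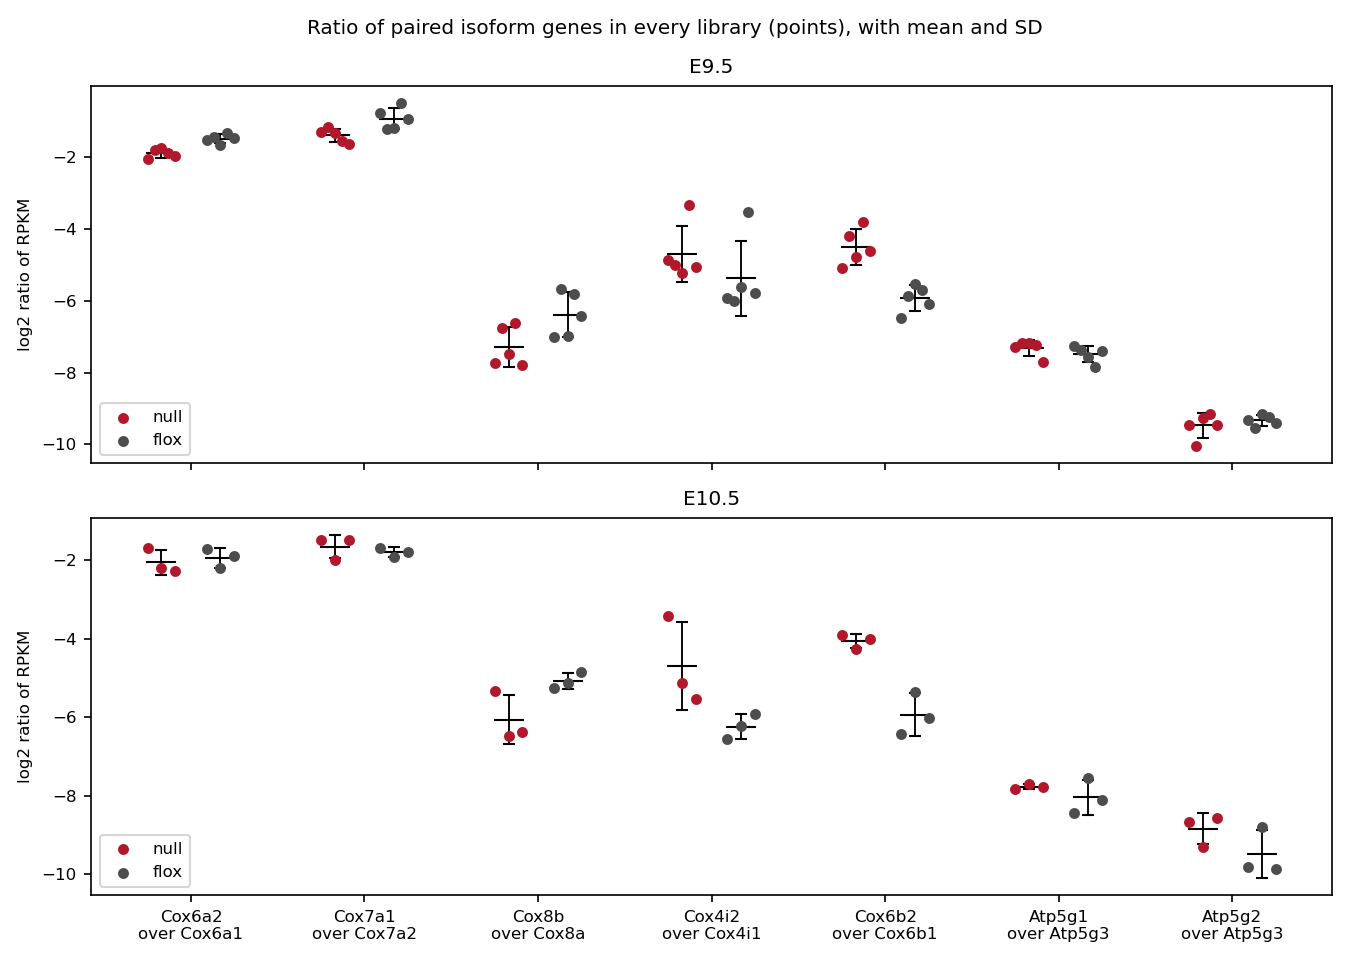
Log2 ratio of RPKM + 0.5 (y axis) of 7 isoform pairs in every library at E9.5 (upper panel) and E10.5 (lower panel), null (red) left of flox (grey), with mean and SD. At E9.5 the groups do not overlap for Cox6a2 over Cox6a1 (null lower) and Cox6b2 over Cox6b1 (null higher), and at E10.5 for Cox8b over Cox8a (null lower), Cox4i2 over Cox4i1 and Cox6b2 over Cox6b1 (null higher).

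Of the cell type marker lists, the erythroid and cardiomyocyte lists held genes that differed between the groups at E9.5. The 13 erythroid genes, which cardiac muscle does not express in quantity, summed to 27896 to 75197 RPKM in null and 11022 to 29133 RPKM in flox, and 9 of 13 passed as higher with none lower. The 18 cardiomyocyte genes summed to 16746 to 20582 RPKM in null and 21259.7 to 24734 RPKM in flox, and 6 of 18 passed as lower with none higher. Their median log2 difference, −0.30, stood beside −0.26 for the subunit genes. With the mean log2 erythroid level as a covariate, which also differs between the groups, 8 members passed as lower and Cox6b2 no longer passed, while 1.14% of all tested genes passed as lower and 1.63% as higher. The members' median was then −0.22. With library totals rescaled without erythroid genes and the 10 most abundant genes, 44 fell, against 7.80% of all tested genes. Epicardial genes summed to 150.4 to 451 RPKM in null and 81.3 to 331 RPKM in flox, and none of 9 tested passed (limma), nor with no adjustment was p under 0.05 for any of them. Without the 3 libraries low in them (null 1, flox 1 and flox 3) 27 members fell, with a median of −0.25, while 5.25% of all tested genes fell, with a median over all of −0.044. Endothelial, cushion and foregut and liver genes had none of 12, 12 and 4 past the threshold (limma), and with no adjustment 3, 4 and none were at p under 0.05. Hypoxia response genes had none of 12 past the threshold (limma) and 1 with no adjustment, where 1648 of 13643 tested genes were higher and 2769 lower. The part of these differences in the subunit changes was not tested.

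**Figure D5:**
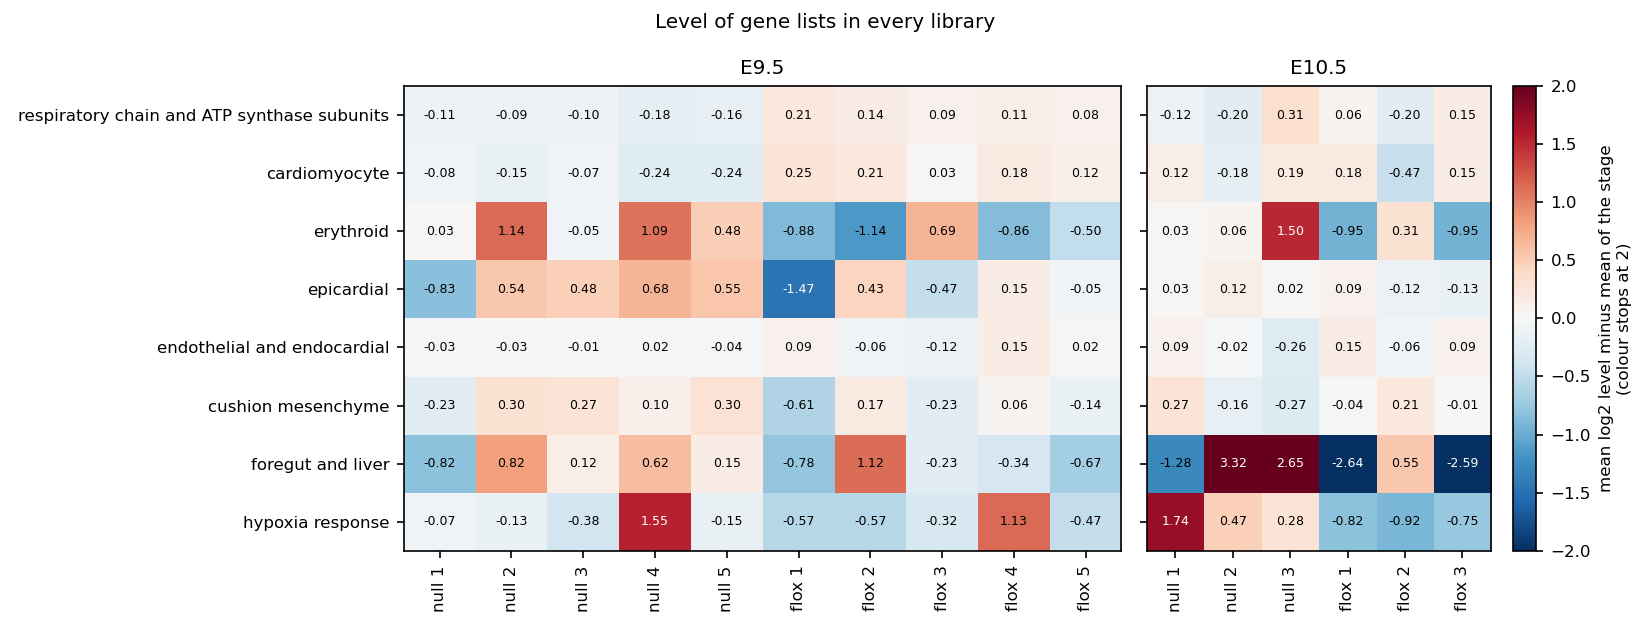
Mean log2 level of the subunit genes and of 7 marker or response lists in every library, relative to the mean of the stage (colour and printed values), at E9.5 (left) and E10.5 (right), null libraries left of flox. At E9.5 the subunit row is below 0 in all null and above 0 in all flox libraries, and at E10.5 it is highest in null 3, where the erythroid row is also highest, and lowest in null 2 and flox 2.

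Related gene lists also held more falls than rises at E9.5, as did all tested genes, of which 10.3% fell and 6.87% rose. The share that fell was 22.2% of the genes of the chain outside the symbol rule, 32.7% of assembly factors and 38.9% of carriers. Of 9 genes of the chain outside the symbol rule, 2 fell and none rose: Cyc1, cytochrome c1 of complex III, with a log2 change of −0.44 ± 0.080 (SE), adjusted p = 0.00439, and Etfb, of the electron transfer flavoprotein, with −0.31 ± 0.077 (SE), adjusted p = 0.0201 (limma). Of 49 assembly factors, 16 fell and none rose, with a median log2 change of −0.17. Sdhaf4, which assists SDHA, changed by −0.63, Cox10, which makes the precursor of the heme A of complex IV, by −0.66, Ndufaf7 by −0.43 and Bcs1l, which inserts the Rieske protein, by −0.37. Among 18 tested carriers, pores and other membrane genes of mitochondria, 7 fell and none rose. Slc25a3, the phosphate carrier, changed by −0.24, Slc25a4, the heart form of the ADP/ATP carrier, by −0.38, Tomm40, the pore for imported proteins, by −0.58 and Chchd3, of the cristae junction, by −0.22.

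Among 18 tested regulators of respiratory genes, 5 fell (27.8%) and 1 rose at E9.5, against 10.3% and 6.87% of all tested genes. Esrra, an estrogen-related receptor, had 15.5, 14.8, 14.3, 10.2 and 12.3 RPKM in the null libraries, against 22.7, 22.8, 21.7, 19.0 and 20.2 RPKM in the flox libraries. The groups lay apart, with a change of −0.66 ± 0.11 (SE), adjusted p = 0.00258 (limma). Polrmt, the mitochondrial RNA polymerase, changed by −0.50, Esrrb by −0.57, Esrrg by −0.28 and Gabpa, the DNA-binding subunit of GABP, by −0.20. Gabpb2, a partner of Gabpa, rose by 0.21 ± 0.059 (SE), adjusted p = 0.0338 (limma).

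At E10.5 the groups were not separated for most members. Of 82 tested, 1 rose, again Cox6b2, and none fell by limma. Among 14100 tested genes, 1.77% were called higher and 0.305% lower. With no adjustment, p was under 0.05 for 3 members above and 2 below flox, against 11.6% and 11.3% of all tested genes. Voom called 1 member higher and none lower, against 1.87% and 0.362% of all tested genes. Their median log2 difference was −0.062, beside −0.035 over all tested genes. The median standard error of a member's difference was 0.210 at E10.5 and 0.0669 at E9.5, so a change of the median size seen at E9.5 was not detectable at E10.5. Without null 3 the members' median became −0.23, and without flox 3 it became 0.021. Every null library was above every flox library for 4 members (Cox6b2, Cox4i2, Ndufv3 and Ndufa7), against 13.9% of all tested genes. Every null library was below every flox library for 3 (Cox8b, Ndufs1 and Atp5s), against 17.4% of all tested genes.

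Cox6b2 at E10.5 had 32.5, 22.8 and 42.5 RPKM in the null libraries, against 6.35, 11.0 and 8.84 RPKM in the flox libraries. All null values were above all flox values, with a log2 change of 1.83 ± 0.26 (SE), adjusted p = 0.0159 (limma). Without flox 1 the change was 1.63 with an adjusted p of 0.0669, and without flox 3 it was 1.86 with an adjusted p of 0.0706 (limma), and with the erythroid level as a covariate it was 1.38 with an adjusted p of 0.0764. Cox4i2 had 39.4, 10.0 and 11.2 RPKM in the null libraries, against 3.54, 3.69 and 6.79 RPKM in the flox libraries. Null 1 was the highest, and the difference of 1.77 ± 0.49 (SE), adjusted p = 0.103 did not pass (limma). Cox8b had 5.07, 1.91 and 3.50 RPKM in the null libraries, against 6.16, 5.08 and 8.31 RPKM in the flox libraries. These groups did not overlap, with a log2 difference of −0.87 ± 0.31 (SE), adjusted p = 0.161 that did not pass (limma). Cox7a2 had 139, 134 and 155 RPKM in the null libraries, against 197, 146 and 193 RPKM in the flox libraries, a difference of −0.31 ± 0.17 (SE), adjusted p = 0.304 (limma). The other isoform genes of complex IV overlapped between groups: Cox6a2 had 86.0, 63.1 and 104 RPKM in the null libraries, against 93.0, 58.4 and 99.3 RPKM in the flox libraries. Cox7a1 had 49.7, 33.2 and 55.1 RPKM in the null libraries, against 61.1, 38.4 and 55.6 RPKM in the flox libraries. Null 2 and flox 2 were the lowest libraries of their groups in both genes.

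The general forms overlapped too at E10.5. Cox4i1 had 424, 368 and 544 RPKM in the null libraries, against 380.4, 313 and 443 RPKM in the flox libraries. Cox6a1 had 278, 292 and 511 RPKM in the null libraries, against 309, 273 and 373 RPKM in the flox libraries. In both, null 3 was the highest library of the stage. Cox6b1 had 498, 444 and 687 RPKM in the null libraries, against 587, 466 and 606 RPKM in the flox libraries, and Cox8a had 224, 213 and 331 RPKM in the null libraries, against 252, 193 and 254 RPKM in the flox libraries. Their log2 differences lay between −0.041 (Cox6b1) and 0.23 (Cox4i1), none past the threshold.

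In complex I at E10.5, 22 of 36 log2 differences were below 0 and none passed. Ndufv3 had 125, 85.9 and 111 RPKM in the null libraries, against 62.2, 49.1 and 68.4 RPKM in the flox libraries. All null values were above all flox values, with a difference of 0.83 ± 0.19 (SE), adjusted p = 0.0733 (limma). Ndufa7 had 27.1, 28.6 and 34.8 RPKM in the null libraries, against 21.0, 23.2 and 27.1 RPKM in the flox libraries, also with every null library above every flox library (0.34 ± 0.16 (SE), adjusted p = 0.250, limma). Ndufs1, the largest core subunit, had 80.8, 86.0 and 87.1 RPKM in the null libraries, against 121, 93.3 and 110.4 RPKM in the flox libraries. It was the 1 complex I gene with every null library below every flox library, −0.35 ± 0.15 (SE), adjusted p = 0.216 (limma). Ndufs7 had 68.4, 55.8 and 95.9 RPKM in the null libraries, against 51.9, 42.1 and 61.8 RPKM in the flox libraries, with null 3 highest and the groups overlapping (0.48 ± 0.23 (SE), adjusted p = 0.251, limma).

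In complex II the 4 differences at E10.5 were below 0 and none passed. Sdhb had 121, 137 and 184 RPKM in the null libraries, against 182, 142 and 192 RPKM in the flox libraries. Sdhc had 104, 117 and 128 RPKM in the null libraries, against 143, 115 and 163 RPKM in the flox libraries. Flox 2 was the lowest flox library in both and lay among the null values. Sdha had 144, 126 and 119 RPKM in the null libraries, against 154, 125 and 145 RPKM in the flox libraries. Sdhd had 174, 196 and 243 RPKM in the null libraries, against 264, 187 and 259 RPKM in the flox libraries. The log2 differences ran from −0.26 ± 0.18 (SE), adjusted p = 0.396 for Sdhc to −0.12 ± 0.16 (SE), adjusted p = 0.671 for Sdha (limma).

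In complexes III and V the values at E10.5 mostly crossed. Uqcrb, a small subunit, had 4.78, 3.39 and 5.06 RPKM in the null libraries, against 6.24, 4.90 and 6.13 RPKM in the flox libraries. Uqcrc2 had 179, 170.1 and 206 RPKM in the null libraries, against 230.5, 188 and 238 RPKM in the flox libraries. Neither difference passed, −0.36 (adjusted p = 0.302) and −0.24 (adjusted p = 0.405, limma). Uqcr11 had 42.0, 41.3 and 68.8 RPKM in the null libraries, against 44.7, 35.4 and 44.9 RPKM in the flox libraries. Uqcrq had 41.7, 51.2 and 81.3 RPKM in the null libraries, against 49.9, 41.1 and 50.8 RPKM in the flox libraries. Both were highest in null 3, with log2 differences of 0.25 and 0.24 that did not pass. Atp5sl had 9.80, 8.13 and 8.14 RPKM in the null libraries, against 11.1, 9.47 and 13.6 RPKM in the flox libraries. Atp5j had 148, 154 and 217 RPKM in the null libraries, against 245, 189.9 and 229 RPKM in the flox libraries. Their differences were −0.36 (adjusted p = 0.256) and −0.37 (adjusted p = 0.296, limma). Atp5s had 7.01, 8.30 and 9.69 RPKM in the null libraries, against 10.1, 9.95 and 9.98 RPKM in the flox libraries. Atp5c1 had 104, 90.2 and 118 RPKM in the null libraries, against 135, 107 and 132 RPKM in the flox libraries. Atp5s was the 1 gene of complex V without overlap, and neither passed (−0.26 and −0.26).

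Single libraries stood apart in the complex sums at E10.5. Complex I summed to 2703, 2603 and 3856 RPKM in the null libraries and 3199.6, 2591 and 3334 RPKM in the flox libraries. Complex II summed to 543, 577 and 674 RPKM in the null libraries and 743, 569 and 759.5 RPKM in the flox libraries. Complex III summed to 997, 973 and 1369 RPKM in the null libraries and 1250.5, 980.0 and 1272 RPKM in the flox libraries. In each, null 3 was the highest null and flox 2 the lowest flox library. Complex IV summed to 2519.5, 2279 and 3552 RPKM in the null libraries and 2954, 2265 and 3061 RPKM in the flox libraries. Complex V summed to 3579, 3493 and 4555 RPKM in the null libraries and 4437, 3473 and 4734 RPKM in the flox libraries. The same 2 libraries stood apart, and the mean in null over that in flox ran from 0.866 (complex II) to 1.01 (complex IV). The mean log2 level of the erythroid list was 7.60, 7.63 and 9.08 in null libraries 1 to 3 and 6.62, 7.88 and 6.63 in flox libraries 1 to 3. That of the cardiomyocyte list was 8.44, 8.13 and 8.51 in null and 8.50, 7.85 and 8.47 in flox. That of the foregut and liver list was 1.18, 5.78 and 5.11 in null and −0.18, 3.00 and −0.14 in flox. Flox 2 had the lowest cardiomyocyte level and the highest foregut and liver level of the flox libraries, and null 3 the highest erythroid level of all. At E10.5, 1 of 13 erythroid genes passed as higher, as did 1 of 10 epicardial and 1 of 12 cushion genes, against 1.77% of all tested genes. None of 18 cardiomyocyte, 12 endothelial and 6 foregut and liver genes passed (limma). With no adjustment, 2, 2 and 4 of those last lists were at p under 0.05, against 11.6% higher and 11.3% lower of all tested genes. The part of these levels in the subunit values was not tested. With the foregut and liver level as a covariate 2 members, Ndufv3 and Cox4i2, and 1.16% of all tested genes were higher, while Cox6b2 no longer passed (1.73, adjusted p = 0.0689, limma).

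The hypoxia response list differed at E10.5. Of its 12 genes 2 rose, Ndufa4l2 and Ndrg1, and none fell, against 1.77% and 0.305% of all tested genes. In 11 of the 12 every null library was above every flox library, against 13.9% of all tested genes. The mean log2 level of the 12 genes was 6.17, 4.90 and 4.71 in null libraries 1 to 3 and 3.60, 3.51 and 3.68 in flox libraries 1 to 3. Ndufa4l2, a relative of the complex IV subunit Ndufa4 that is induced by low oxygen, had 47.7, 13.1 and 14.9 RPKM in the null libraries, against 0.579, 0.810 and 1.08 RPKM in the flox libraries. Null 1 was the highest library for it and for Cox4i2, and the change was 4.05 ± 0.44 (SE), adjusted p = 0.00503 (limma). Cox4i2 is itself on the hypoxia list, so part of its likeness to that list is built in. The part of hypoxia in the values of Cox4i2 and Ndufv3 was not tested. Assembly factors, regulators and carriers had none of 49, 18 and 18 genes past the threshold at E10.5 (limma). With no adjustment 12, 3 and 1 were lower and 1, none and none higher at p under 0.05. Among all tested genes, 11.3% were lower and 11.6% higher at that p. Gabpa, which also overlaps Atp5j, had 17.0, 21.7 and 12.8 RPKM in the null libraries, against 32.0, 31.9 and 27.5 RPKM in the flox libraries, a log2 difference of −0.83 ± 0.20 (SE), adjusted p = 0.0754 (limma).

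No isoform ratio could pass at E10.5, since 3 against 3 allows no exact p below 0.1. Cox6b2 over Cox6b1 was −3.92, −4.25 and −4.00 in the null libraries, against −6.42, −5.35 and −6.02 in the flox libraries. Cox4i2 over Cox4i1 was −3.41, −5.13 and −5.54 in the null libraries, against −6.56, −6.22 and −5.93 in the flox libraries. Each null ratio was higher in both pairs, with differences of 1.87 and 1.54. Cox8b over Cox8a was −5.33, −6.47 and −6.37 in the null libraries, against −5.25, −5.12 and −4.85 in the flox libraries, each null ratio lower, a difference of −0.99. Cox6a2 over Cox6a1 differed by −0.11 and Cox7a1 over Cox7a2 by 0.14, with overlap. The differences for Atp5g1 and Atp5g2 over Atp5g3 were 0.27 and 0.64.

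The change at E10.5 minus that at E9.5 was tested in 1 fit of all 16 libraries. It was above 0 for 65 of 82 members, with a median of 0.20 beside −0.010 over 13418 tested genes. It passed as higher for 2 members and as lower for none, against 2.62% and 1.42% of all tested genes. With no adjustment, 21 had a positive difference at p under 0.05 and none a negative one, against 14% and 12.4% of all tested genes. Ndufs7, the core subunit of complex I that holds the last iron-sulfur cluster before ubiquinone, had 71.1, 81.3, 72.5, 62.1 and 66.0 RPKM in the null libraries, against 98.7, 99.0, 89.0, 94.9 and 87.7 RPKM in the flox libraries at E9.5. Against the values given above for E10.5, the difference of its log2 changes was 0.89 ± 0.21 (SE), adjusted p = 0.0350 (limma). Atp5d had 213, 192 and 308 RPKM in the null libraries, against 183, 153 and 222 RPKM in the flox libraries at E10.5. Its difference was 0.85 ± 0.20 (SE), adjusted p = 0.0366 (limma). The fit shared 1 residual variance per gene between the stages, although the spread was larger at E10.5. The SE of the E10.5 change alone was 0.23 for Ndufs7 and 0.23 for Atp5d, more than that of the difference. These 2 adjusted p-values may therefore be too small. No member passed without null 3, flox 1 or flox 2 of E10.5, or without null 3, null 5 or any of flox 1 to 4 of E9.5. In those fits 0.0298% to 1.75% of all tested genes passed as higher, against 2.62% with all libraries, so the loss was not particular to members. Without null 2, flox 3 and null 1 of E10.5, 17, 8 and 5 members passed as higher, against 5.97%, 5.11% and 3.46% of all tested genes. Among assembly factors 2 passed as higher, Sco2, a copper chaperone of complex IV (0.63, adjusted p = 0.0366), and Timmdc1, which assists complex I (0.68, adjusted p = 0.0455, limma). Among regulators 3 passed as lower, all of GABP: Gabpa (−0.63), Gabpb1 (−0.44) and Gabpb2 (−0.73), with adjusted p from 0.0400 to 0.0479 (limma). Across the 82 members the changes at the 2 stages had a Spearman correlation of −0.070, given as a description over genes that share libraries.

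In the deposited tables of the authors' own comparisons, which list genes at an adjusted p up to their cutoff as log2 of control over null, 50 members were listed at E9.5. In the authors' deposited table, null was lower for 49 of them and Cox6b2 was higher in null (log2 of control over null −1.02), and they held 47 of the 52 falls above. That table listed 3094 genes in all, 1469 lower and 1625 higher in null, which are 5.99% and 6.63% of the 24509 genes with deposited RPKM values. At E10.5 the authors' deposited table listed 3 members, each higher in null: Cox6b2 (−1.61), Cox4i2 (−1.43) and Ndufv3 (−0.80). It listed 1357 genes in all, 932 higher and 425 lower in null, which are 3.8% and 1.73% of the 24509 genes.

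CHD4 peaks in wild-type hearts lay near most starts. A peak lay within 1 kb of the start in at least 2 of the 3 lists for 66 of 70 members (94.3%), against 79.5% of the tested genes with a start. Among tested genes at a mean of at least 20 RPKM at E9.5 the share was 92.1%, and among members at that level 51 of 53 (96.2%). Of members that fell at E9.5, 42 of 44 had such a peak, and of tested members not called, 23 of 24. The 4 without were Cox8b and Cox7b2, with no peak in any list, and Cox6b1 and Ndufa1, with a peak in 1 list. The authors' peak scores, whose scale the sources used here do not state, were 1814, 1374 and 1071 at Ndufs7 and 444, 246 and 248 at Atp5d in lists 1, 2 and 3. At Cox6b2 they were 124, 141 and 100, at Ndufa8 157, 119 and 38, and at Sdhb 228, 141 and 131. The 3 lists are not 3 independent samples.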

How the data were processed

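RPKM values per gene and library, with gene lengths, were deposited by the authors; per the labels the libraries were polyadenylated and stranded. The authors' tools, as the submitters' processing notes list them, were HTSeq 0.6.2, Bowtie 1.2.0, MACS2, SAMtools 1.6, DESeq2 1.6.3 and bedtools 2.25.0, with the build mm10. The deposited tables of the authors' comparisons give a log2 fold change of control over null, a test score and adjusted p-values, and hold only genes at an adjusted p up to 0.05. The peak lists hold positions and a score that the authors deposited. Multiplying RPKM by length and depth returned whole reads for 100% of values (tolerance 0.01 reads). Read numbers cover counting error only.

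For each stage alone, genes averaging 0.5 RPKM or more were fitted as log2(RPKM + 0.5), which understates changes of low genes, by limma 3.58.1 in R 4.3.3 (lmFit, eBayes with trend), with no covariate and two-sided. The difference between stages was the interaction term of 1 fit over both stages, with a residual variance per gene shared by the stages. Summaries used Python 3.11.15, pandas 2.3.3, numpy 2.4.6, scipy 1.17.1 and matplotlib 3.10.9. The fits were tested on simulated data. Other settings were pseudocounts of 0.1 and 1, filters, scalings, array weights, voom, an erythroid covariate, a replicate block and leaving out each library. Added after seeing the data were the sex of the library, a foregut and liver covariate, and leaving out libraries high in hypoxia genes or low in epicardial genes. Sex is not in the labels used here. It was inferred as a yes or no per library from whether Xist exceeded Ddx3y, which cannot describe a library of mixed sex. Named genes are, per stage and complex, up to 4 of smallest p, the isoform pairs, calls against the majority, calls between stages, and up to 4 per other list. Genes outside that rule were named after their values were seen. Members and lists were chosen with earlier results of these data known. The 2 input libraries were not used here. The values of 1 complex I gene are not reported here, and it is left out of the plot of changes but not of the counts.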

Additional observations from a re-analysis of the deposited data

Results flagged for a closer look

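In groups of 5 at E9.5, a library was far from the other 4 in 9 of 104 groups of values, where chance gives about 1 in 20. Cox4i2 was at 34.4 RPKM in null 4 and 39.0 RPKM in flox 4, and Ndufv3 was at 102.2 RPKM in null 4 and 102.6 RPKM in flox 4. The log2 ratio of Cox4i2 to Cox4i1 was −3.32 in null 4 and −3.53 in flox 4. The other 3 were Atp5sl, at 11.4 RPKM in null 1, Cox7a2, at 94.6 RPKM in flox 4, and the log2 ratio of Atp5g1 to Atp5g3, at −7.71 in null 5. The change at E10.5 minus that at E9.5 differed from 0 by limma for Ndufs7 (0.89) and Atp5d (0.85). These were 2 of 82 members, and 2.62% of all tested genes passed as higher and 1.42% as lower in that test. The count of members was therefore not above the share over all genes.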

How the results depend on the processing

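At E9.5 the 52 lower and 1 higher members became 8 and 0 with the erythroid level as a covariate, 27 lower without the 3 libraries low in epicardial genes, and 2 higher without the 2 libraries high in hypoxia genes. Under the other settings the lower count was 36 (inferred sex of the library) to 57 (array weights and the replicate block), and 41 to 50 leaving out 1 library, with 1 higher in each. Of all tested genes, 4.90% were lower with the sex of the library, 15.5% with array weights and 16.9% with the block. The share was 6.35% to 12.3% leaving out 1 library, so the member counts moved with those of all genes. At E10.5 the 1 higher member became 0 with the erythroid level, 2 with the replicate block, 2 with the foregut and liver level and 0 to 1 leaving out 1 library, and array weights gave 2 lower. Of all tested genes at E10.5, array weights gave 2.79% lower, against 0.305% in the main fit. With the erythroid level 0.390% of them were higher, against 1.77%. The 2 members that differed between stages became 7 by quantile normalization, 0 by array weights, 15 with the replicate block and 0 to 17 leaving out 1 library. They became 0 without null 3, null 5 or flox 1, 2, 3 or 4 at E9.5 and without null 3, flox 1 or flox 2 at E10.5, and 5, 17 and 8 without null 1, null 2 and flox 3 at E10.5. Between stages, 3.26% of all tested genes were higher by quantile normalization, 1.36% by array weights and 6.59% with the block, against 2.62% in the main fit. Where leaving out 1 library gave 0 members, the share was 0.0298% to 1.75%. The isoform pairs called at E9.5 (2) became 0 with the replicate block, whose smallest exact p cannot pass, and 0 to 3 leaving out 1 library (0 without null 1, 4 or 5 or flox 1). Both pairs keep their groups apart whichever library is left out, so these losses do not show dependence on 1 library. Required in all 3 lists, peaks stood at 85.7% of members and 64.2% of tested genes. The cause of these moves was not tested. Leaving out 1 library, complex ratios at E9.5 stayed between 0.772 (complex II) and 0.853 (complex I). At E10.5 the ratios ran from 0.872 to 1.08 for complex I, 0.844 to 1.01 for III and 0.869 to 1.10 for IV, so their direction was not stable. Those of complexes II (0.796 to 0.911) and V (0.839 to 0.980) stayed below 1. Among named genes, 933 gene-by-setting values at E9.5, 733 at E10.5 and 1066 between stages kept call and direction, 60, 4 and 20 lost the call, 5, 5 and 32 gained one, 1, 57 and 41 changed sign without a call, and none turned a called direction round.

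The replicate numbers were not shown to pair the libraries: same-numbered deviations correlated from −0.14 to 0.52 at E9.5 and from −0.03 to 0.11 at E10.5, and 3 of 5 and 1 of 3 libraries were closest to their own number. The 57, 2 and 15 members called with the block are therefore not read as paired results. Counting error limits Cox8b, Atp5g2 and Atp5l, and the spread between the 3 libraries of a group limits E10.5.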
